A study of Danio rerio with 30 samples.

Results

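The neural crest specifiers described here are 9 zebrafish genes: sox10, foxd3, tfap2a, snai1b, snai2, twist1a, sox9a, sox9b and crestin. They were found by gene symbol. All 9 had a row among the 14648 genes of the triplicate experiment and of the preliminary experiment at 21 hours post fertilization (hpf), and 8 of the 9, all but crestin, had a row among the 31874 genes of the preliminary experiment at 18 hpf. The study sequenced polyadenylated RNA of *AB zebrafish embryos to set the T-box paralogues Tbx5a and Tbx5b against each other. Embryos were injected at the 1-cell stage with morpholinos against Tbx5a (Tbx5a-deficient), Tbx5b (Tbx5b-deficient) or both (double-deficient), and the reference was wildtype embryos, for which no control injection was named. The triplicate experiment had these 4 genotypes at 21 and 18 hpf, 8 groups of 3 libraries, from embryos whose eyes had been dissected away. The preliminary experiment had 1 library each of Tbx5a-deficient, Tbx5b-deficient and wildtype embryos at each stage, from complete embryos. Each library held RNA of 10 pooled embryos.

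Neural crest cells arise at the border of the neural plate, leave the dorsal neural tube by an epithelial to mesenchymal transition and migrate through the embryo, where they give rise to pigment cells, peripheral neurons and glia, and much of the head skeleton. Specifiers are the transcription factors that set up this identity after Wnt, Bmp, Fgf and Notch signals have defined the border. Of the members, crestin is not such a factor but a marker transcript of crest cells. Most of them are also made elsewhere, so in whole embryos only part of their RNA comes from crest. In such bulk samples fewer cells of a type and less RNA per cell cannot be told apart.

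Levels are in FPKM, fragment counts divided by transcript length and scaled for read depth, so genes of different length can be compared. How the authors' software scaled the groups to each other is not given with the values. The triplicate experiment gives 1 pooled value per group and the preliminary experiment 1 library per group, so there is no spread between replicates and no p-value. Each value comes with a lower and an upper confidence bound from the authors' software, at a level that is not given with the values, and read depth is not part of the values. A gene was kept in a comparison where both values were marked OK and at least 1 of them reached 1 FPKM. It was called changed where the log2 ratio of (FPKM + 1) was at least 1 in either direction and the authors' intervals for the pair had no FPKM value in common.

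Morpholinos block translation or splicing rather than transcription, so the RNA levels of the targeted genes do not check the injections. In the triplicate experiment tbx5a was at 0.982 to 1.90 FPKM and tbx5b at 0.0699 to 0.229 FPKM. In the preliminary experiment tbx5a stood at 16.1 FPKM in the library labelled Tbx5a-deficient at 21 hpf, against 2.51 FPKM in that labelled wildtype, and at 18 hpf it stood at 5.30 FPKM in the library labelled Tbx5b-deficient, against 1.11 FPKM in that labelled wildtype. The preliminary groups are therefore named below by their labels. Summed over all genes, FPKM ranged from 859057 to 1293230 over the triplicate groups. The highest sum was that of wildtype at 21 hpf. As deposited, the median log2 ratio of all kept genes nevertheless lay between -0.04 and 0.01 in each of the 18 comparisons below. Dividing by the sums, done below as an alternative, moves these medians away from 0.

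The members covered a wide span of levels in every group. In the triplicate experiment tfap2a or twist1a was the highest member in each of the 8 groups, followed by foxd3 and snai2, then sox10, then sox9a, snai1b and sox9b in varying order, with crestin last. Most neighbours in that order were not apart beyond their bounds. Of the 8 neighbouring pairs in a group, only sox9b and crestin were apart, in 7 of the 8 groups, and in Tbx5a-deficient embryos at 21 hpf no neighbours were. In all 6 preliminary libraries tfap2a was the highest member, with twist1a next in 5 of them and snai2 in the Tbx5b-deficient one at 21 hpf.

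**Figure D1:**
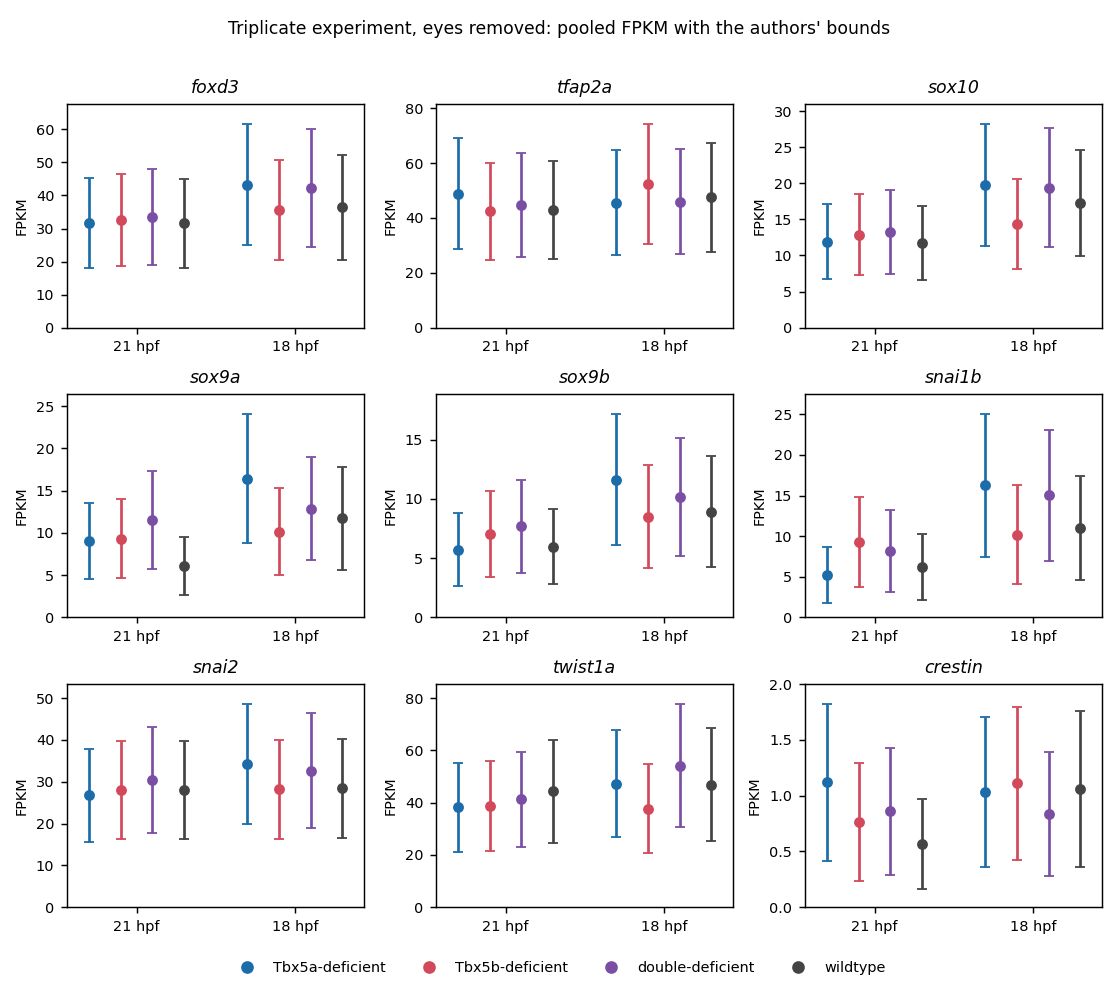
FPKM of the 9 members in the triplicate experiment, 1 panel per gene, with the 4 genotypes at 21 hpf on the left and at 18 hpf on the right. Points are the authors' pooled values of 3 libraries and bars run between the authors' lower and upper bounds. The bounds of all groups overlap for every member, and the points of snai1b range from 5.25 to 16.3 FPKM.

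Among the early specifiers, foxd3 encodes a forkhead factor needed to keep crest progenitors (chromosome 6, 32105118 to 32106916 on danRer10). At 21 hpf it was at 31.8 FPKM in Tbx5a-deficient, 32.6 in Tbx5b-deficient, 33.5 in double-deficient and 31.6 in wildtype embryos of the triplicate experiment. At 18 hpf the same groups had 43.3, 35.6, 42.2 and 36.5 FPKM. All 4 values at 21 hpf were below all 4 at 18 hpf, as for 7.48% of the 11040 genes kept over the 8 groups. For foxd3 this was lost when each value was divided by its group's sum of FPKM. At each stage the wildtype bounds, 18.1 to 45.1 and 20.6 to 52.3 FPKM, took in every deficient value.

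The SoxE factor sox10 (chromosome 3, 2013057 to 2022135), required for pigment cell and peripheral glial fates, followed a like pattern at a lower level. It was at 11.9 FPKM in Tbx5a-deficient, 12.8 in Tbx5b-deficient, 13.3 in double-deficient and 11.7 in wildtype embryos at 21 hpf. At 18 hpf it was at 19.8, 14.4, 19.4 and 17.3 FPKM in the same order. The 21 hpf values again lay below the 18 hpf values with no overlap, as for 7.48% of all kept genes. Within a triplicate group, foxd3 was 2.52 to 2.70 times sox10 at 21 hpf and 2.11 to 2.48 times at 18 hpf. The lower bounds of these ratios were near 1, at 0.991 to 1.07 at 21 hpf and 0.836 to 0.987 at 18 hpf. In the preliminary libraries the ratios were 1.02 to 1.34 at 21 hpf and 1.47 to 2.66 at 18 hpf.

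The AP-2 factor tfap2a (chromosome 24, 8581298 to 8590639) acts upstream of other crest specifiers and is also made in epidermis. Its triplicate levels were 48.9 FPKM in Tbx5a-deficient, 42.5 in Tbx5b-deficient, 44.7 in double-deficient and 42.9 in wildtype embryos at 21 hpf, and 45.6, 52.2, 45.9 and 47.4 FPKM at 18 hpf. The highest of these 8 values was 1.23 times the lowest, the narrowest spread of any member in the triplicate experiment. The stages overlapped.

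The duplicated SoxE genes sox9a and sox9b share ancestral Sox9 roles in crest and cartilage, and both are also expressed outside crest, in the ear among other sites, sox9a in somites as well. For sox9a (chromosome 12, 1927596 to 1931236) the triplicate levels at 21 hpf were 9.05 FPKM in Tbx5a-deficient, 9.34 in Tbx5b-deficient, 11.5 in double-deficient and 6.07 in wildtype embryos. At 18 hpf they were 16.4, 10.1, 12.9 and 11.7 FPKM. Wildtype was thus the lowest of the 4 groups at 21 hpf, and Tbx5b-deficient the lowest at 18 hpf. For sox9b (chromosome 3, 62343297 to 62348422) the same groups had 5.72, 7.05, 7.67 and 5.95 FPKM at 21 hpf. At 18 hpf they had 11.6, 8.49, 10.2 and 8.91 FPKM. The 21 hpf values lay below these with no overlap, as for 7.48% of all kept genes. The ratio of sox9a to sox9b within a triplicate group was above 1 in each, at 1.02 to 1.58 at 21 hpf and 1.19 to 1.41 at 18 hpf. The bounds of this ratio took in 1 in every triplicate group. In wildtype embryos they were 0.29 to 3.42 at 21 hpf and 0.41 to 4.21 at 18 hpf.

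The zinc finger repressors snai1b and snai2 are Snail family factors, known for repressing cadherin genes at the epithelial to mesenchymal transition. At 21 hpf snai1b (chromosome 23, 2567181 to 2573868) was at 5.25 FPKM in Tbx5a-deficient, 9.31 in Tbx5b-deficient, 8.13 in double-deficient and 6.18 in wildtype embryos. At 18 hpf it was at 16.3, 10.2, 15.0 and 11.0 FPKM. The highest value, in Tbx5a-deficient embryos at 18 hpf, was 3.10 times the lowest, in the same genotype at 21 hpf, the widest spread of any member in the triplicate experiment. Its bounds were wide too, with the upper bound of a group 3.34 to 4.87 times the lower one.

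Levels of snai2 (chromosome 24, 35501020 to 35507036) moved far less. They were 26.8 FPKM in Tbx5a-deficient, 27.9 in Tbx5b-deficient, 30.4 in double-deficient and 28.0 in wildtype embryos at 21 hpf, and 34.3, 28.2, 32.7 and 28.4 FPKM at 18 hpf. Within a group snai2 was 3.0 to 5.10 times snai1b at 21 hpf and 2.11 to 2.76 times at 18 hpf. The bounds of these ratios overlapped, in wildtype embryos 1.59 to 18.7 at 21 hpf and 0.95 to 8.85 at 18 hpf. In the preliminary libraries the ratios were 2.97 to 4.21 at 21 hpf and 1.66 to 3.37 at 18 hpf.

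The basic helix-loop-helix factor twist1a (chromosome 19, 2397420 to 2399443) is made in crest and in other mesenchyme. It was at 38.3 FPKM in Tbx5a-deficient, 38.7 in Tbx5b-deficient, 41.2 in double-deficient and 44.4 in wildtype embryos at 21 hpf, and at 47.3, 37.7, 54.1 and 47.0 FPKM at 18 hpf. Wildtype was the highest of the 4 groups at 21 hpf, and the double-deficient group at 18 hpf.

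The crestin transcript is a widely used zebrafish marker of premigratory and migrating crest, and comes from a retroelement with near-identical copies, so reads may be split among copies and its level is uncertain. The row used here lies on chromosome 4, 45690506 to 45694942. It was at 1.12 FPKM in Tbx5a-deficient, 0.764 in Tbx5b-deficient, 0.860 in double-deficient and 0.569 in wildtype embryos at 21 hpf, and at 1.03, 1.11, 0.836 and 1.06 FPKM at 18 hpf. These values lie around the 1 FPKM minimum, and the upper bound of a group was 4.26 to 5.93 times its lower bound. The members chosen to check for crest, sox10, foxd3 and crestin, were thus all above 0 in the 8 triplicate groups, crestin with wide bounds. How much of their RNA came from other tissues was not tested.

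The deficient groups were first compared with wildtype of the same stage in the triplicate experiment, which asks whether either Tbx5 paralogue affects crest specifier RNA. None of the members was called changed in Tbx5a-deficient (0 of 9 kept), Tbx5b-deficient (0 of 8) or double-deficient embryos (0 of 8) at 21 hpf, nor in any of these groups at 18 hpf (0 of 9 each). The share of all kept genes called changed was itself low. In the same order of genotypes it was 0.298%, 0.224% and 0.277% at 21 hpf, and 0.255%, 0.254% and 0.237% at 18 hpf, so 0 of 9 is near that background. Crestin was below 1 FPKM in both groups for the Tbx5b-deficient and double-deficient comparisons at 21 hpf and was not kept there.

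Over these 6 comparisons the 54 member ratios ran from a log2 of -0.31 to 0.82. The highest was sox9a in double-deficient embryos at 21 hpf, with 11.5 FPKM (bounds 5.72 to 17.3) in double-deficient against 6.07 FPKM (2.61 to 9.53) in wildtype embryos. The single-deficient embryos had log2 ratios of 0.51 (Tbx5a) and 0.55 (Tbx5b) for this gene at that stage. These 3 ratios share the single wildtype value, and the bounds overlapped in each. At 18 hpf the sox9a ratios were 0.45 for Tbx5a, -0.19 for Tbx5b and 0.13 for the double deficiency, so the direction was not shared across groups.

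The snai1b log2 ratios over wildtype at 21 hpf were -0.20 for Tbx5a, 0.52 for Tbx5b and 0.35 for the double deficiency. At 18 hpf they were 0.53, -0.09 and 0.42. The sign therefore differed between the stages in the Tbx5a-deficient and in the Tbx5b-deficient embryos, with overlapping bounds at both stages. Twist1a was the member most often below wildtype, with ratios of -0.21, -0.19 and -0.10 in the 3 deficient groups at 21 hpf, and 0.01, -0.31 and 0.20 at 18 hpf. The ratios of foxd3 lay between -0.03 and 0.24 and those of tfap2a between -0.06 and 0.18.

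**Figure D2:**
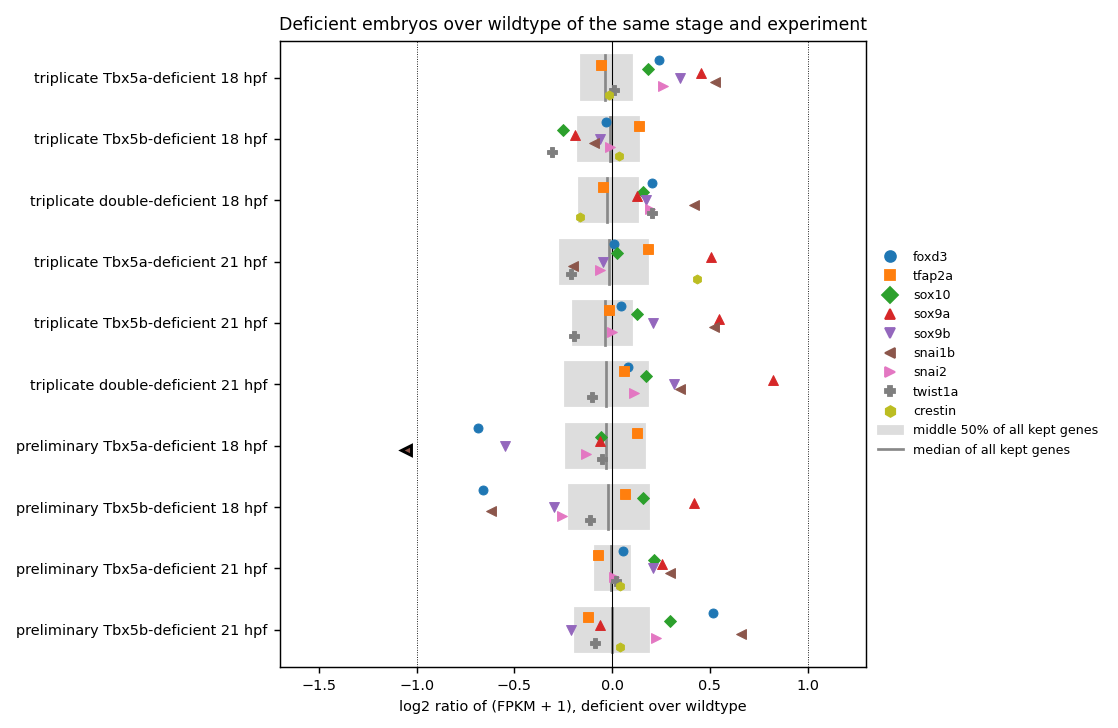
Log2 ratio of (FPKM + 1) of each kept member, deficient over wildtype of the same stage, for the 6 triplicate and 4 preliminary comparisons. Grey boxes span the middle 50% of all kept genes with their median, dotted lines mark a log2 ratio of 1 in either direction, and a black outline marks the only member called changed, snai1b at -1.05 in the preliminary Tbx5a-deficient library at 18 hpf.

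The median log2 ratio of the kept members over wildtype at 21 hpf was 0.01 for Tbx5a, 0.08 for Tbx5b and 0.14 for the double deficiency, beside -0.02, -0.04 and -0.03 over all kept genes. At 18 hpf the medians of the members were 0.24, -0.06 and 0.17, beside -0.04, -0.01 and -0.03. Since FPKM sums differed between groups, the same ratios were taken after dividing each value by its group's sum. This moved the median of all kept genes in these 6 comparisons by -0.10 to 0.48. With Tbx5b-deficient embryos at 18 hpf, 9 of 9 kept members then lay above wildtype. Without scaling 2 of 9 did, beside 47.6% of all kept genes. With Tbx5a-deficient embryos at 21 hpf, 9 of 9 did after scaling. Without it 5 of 9 did, beside 48.0% of all kept genes. For the other deficient groups at 21 hpf, 8 of 8 did after scaling. Most genes moved the same way, since the scaled median of all kept genes was above 0 in each. It was 0.27 for Tbx5b at 18 hpf, and 0.46 for Tbx5a, 0.32 for Tbx5b and 0.35 for the double deficiency at 21 hpf. Relative to the median of all genes the members' median stood at 0.03, 0.12 and 0.18 at 21 hpf and 0.28, -0.05 and 0.20 at 18 hpf without scaling, and at 0.08, 0.15 and 0.21, and 0.29, -0.06 and 0.20, with it. Directions of single members against wildtype thus depended on the scaling in these groups, while no member was called changed under either.

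The bounds set what could be seen. In the triplicate experiment the upper bound of a group was 2.42 to 2.47 times the lower bound for tfap2a, 2.43 to 2.47 times for snai2, 2.45 to 2.54 times for foxd3, 2.48 to 2.58 times for sox10, 2.54 to 2.69 times for twist1a, 2.80 to 3.28 times for sox9b and 2.74 to 3.65 times for sox9a. Smaller differences than these were not detectable by this rule. Over the 252 pairs of triplicate groups that the 9 members give, the bounds were apart in 0.

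In the preliminary experiment 1 member was called changed. In the library labelled Tbx5a-deficient at 18 hpf, snai1b was at 6.58 FPKM (bounds 4.11 to 9.04), against 14.7 FPKM (9.72 to 19.7) in the library labelled wildtype. It fell by 1.05 on the log2 scale, 1 of 8 kept members called changed beside 1.57% of all kept genes, of which those called lower made up 1.01%. In the library labelled Tbx5b-deficient it was at 9.24 FPKM (5.93 to 12.6), a log2 ratio of -0.62, and 0 of 8 kept members were called changed beside 1.58% of all kept genes. Both ratios rest on the same wildtype library, in which snai1b was the highest of the preliminary libraries at that stage.

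The triplicate experiment gave another picture for the same gene and stage, with 16.3 FPKM in Tbx5a-deficient against 11.0 FPKM in wildtype embryos, a log2 ratio of 0.53. The preliminary libraries at 21 hpf had 8.08 (labelled Tbx5a-deficient), 10.7 (Tbx5b-deficient) and 6.39 FPKM (wildtype) for snai1b. These 3 values had overlapping bounds, with log2 ratios of 0.30 and 0.66 over wildtype. The direction of snai1b at 18 hpf in the library labelled Tbx5a-deficient was therefore not shared by the pooled triplicate value or by the later stage. The experiments differ in whether the eyes were present, in sequencing depth and, at 18 hpf, in the annotation. The paper reports more reads in all for the preliminary experiment, which had fewer libraries. The part of these differences was not tested.

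For foxd3 the preliminary libraries at 18 hpf stood at 19.3 FPKM (labelled Tbx5a-deficient) and 19.7 FPKM (Tbx5b-deficient), against 31.7 FPKM (wildtype). The log2 ratios were -0.69 and -0.66, with bounds of 13.5 to 25.1 and 13.8 to 25.6 FPKM that reached past the lower wildtype bound of 22.4 FPKM. At 21 hpf it was at 15.7, 22.0 and 15.0 FPKM in the same groups. Like snai1b, foxd3 was highest in the wildtype library at 18 hpf and lowest in that at 21 hpf. As with snai1b, the lower values in both deficient libraries at 18 hpf share their wildtype library.

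**Figure D3:**
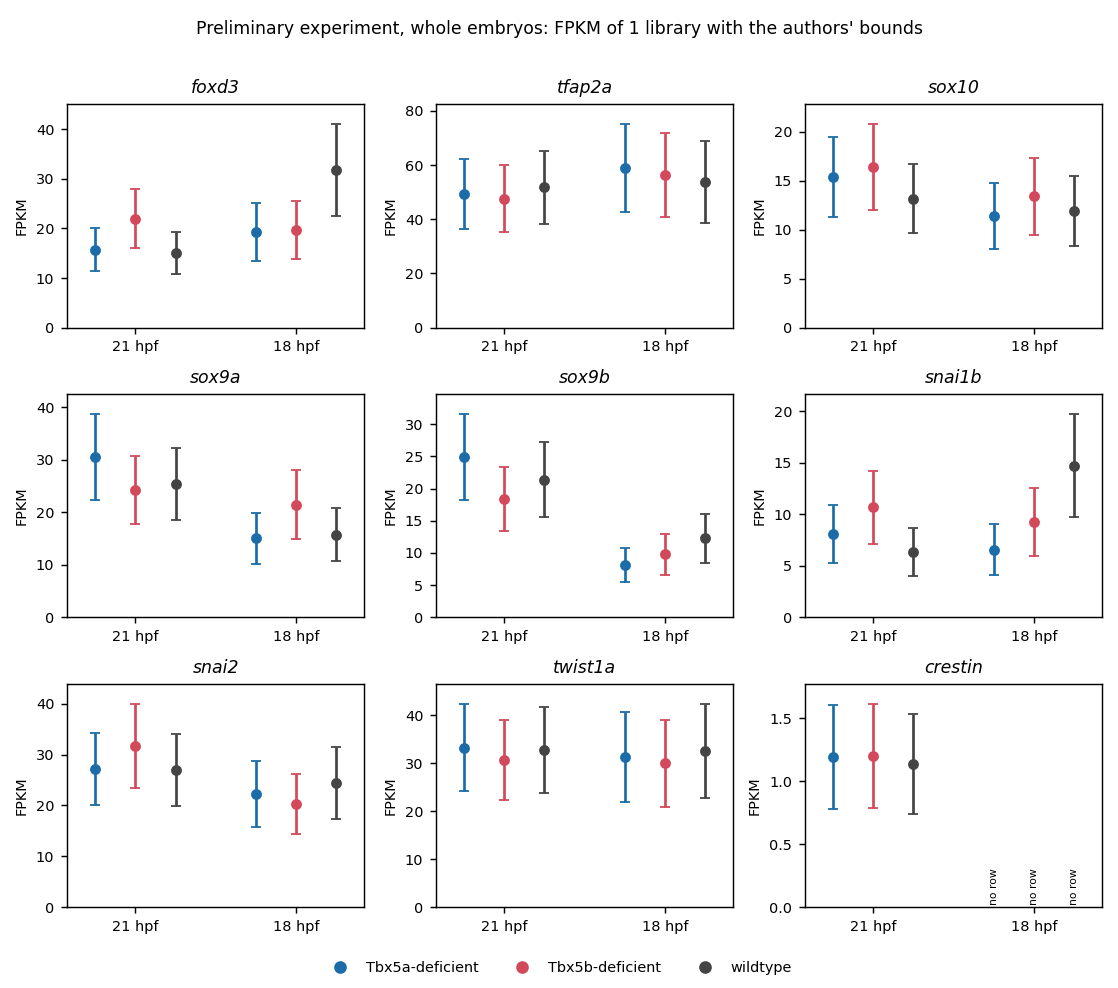
FPKM of the members in the 6 preliminary libraries of complete embryos, 1 panel per gene, with the libraries labelled Tbx5a-deficient, Tbx5b-deficient and wildtype at 21 hpf on the left and at 18 hpf on the right. Bars run between the authors' bounds, and the pair of snai1b bars for Tbx5a-deficient and wildtype at 18 hpf, 4.11 to 9.04 and 9.72 to 19.7 FPKM, is the only same-stage pair apart. Crestin had no row at 18 hpf.

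No other member was called changed against wildtype in the preliminary libraries. At 21 hpf sox10 was at 15.4 FPKM (labelled Tbx5a-deficient), 16.4 (Tbx5b-deficient) and 13.2 (wildtype), and at 18 hpf at 11.4, 13.4 and 11.9 FPKM. For tfap2a the values were 49.3, 47.5 and 51.8 FPKM at 21 hpf, and 58.8, 56.4 and 53.7 FPKM at 18 hpf. Levels of twist1a were the most even of any member with values at both stages, at 33.3, 30.8 and 32.8 FPKM at 21 hpf and 31.4, 30.0 and 32.5 FPKM at 18 hpf. The 6 twist1a values differed by at most 1.11 times, as against 1.44 times for sox10 and 1.24 times for tfap2a. These spreads take in both stages, whose values were processed separately and with different annotations.

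For sox9a the libraries labelled Tbx5a-deficient, Tbx5b-deficient and wildtype were at 30.6, 24.3 and 25.4 FPKM at 21 hpf and at 15.1, 21.5 and 15.8 FPKM at 18 hpf. For sox9b they were at 24.9, 18.4 and 21.4 FPKM at 21 hpf and at 8.07, 9.78 and 12.2 FPKM at 18 hpf. Values for snai2 were 27.2, 31.7 and 26.9 FPKM at 21 hpf and 22.2, 20.3 and 24.4 FPKM at 18 hpf, and for crestin 1.19, 1.20 and 1.14 FPKM at 21 hpf. At 21 hpf 0 of 9 members were called changed in either deficient library, beside 0.0772% (Tbx5a label) and 1.65% (Tbx5b label) of all kept genes. Over the 34 preliminary ratios, log2 values ran from -1.05 to 0.66.

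The preliminary stages were processed as separate sets of values and are set side by side without a comparison. The preliminary sox9b values were 18.4 to 24.9 FPKM at 21 hpf and 8.07 to 12.2 FPKM at 18 hpf, and those of sox9a 24.3 to 30.6 and 15.1 to 21.5 FPKM. The annotation differs between these stages, with a sox9a locus of 3641 bp at 21 hpf and 5593 bp at 18 hpf, so no direction is read from them. In the triplicate embryos each genotype had less sox9a and less sox9b at 21 hpf than at 18 hpf. The triplicate sox9b values, 5.72 to 7.67 FPKM at 21 hpf, lay under every preliminary value of that stage.

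The second factor of the design was stage, compared within the triplicate values. No member was called changed between 21 and 18 hpf in Tbx5a-deficient (0 of 9 kept), Tbx5b-deficient (0 of 9), double-deficient (0 of 8) or wildtype embryos (0 of 9), beside 1.06%, 0.773%, 1.37% and 0.578% of all kept genes. Nearly all member values were nevertheless lower at 21 hpf. Lower values were seen for 7 of 9 members in Tbx5a-deficient, 8 of 9 in Tbx5b-deficient, 8 of 8 in double-deficient and 9 of 9 in wildtype embryos, whereas 50.8%, 53.9%, 51.4% and 48.4% of all kept genes were lower in these groups. After scaling to the sum of FPKM, 7 of 9, 9 of 9, 5 of 8 and 8 of 8 kept members were lower in these groups. Scaling moved the median of all genes by -0.24 to 0.26 here, to 0.24, -0.18, 0.25 and -0.23. In double-deficient embryos 3 members were then higher, where most genes were higher as well.

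The median log2 ratio of the members, 21 over 18 hpf, was -0.44 in Tbx5a-deficient, -0.13 in Tbx5b-deficient, -0.35 in double-deficient and -0.39 in wildtype embryos, beside -0.01, -0.03, -0.01 and 0.01 over all kept genes. After scaling to the sum of FPKM the members' medians were -0.17, -0.29, -0.07 and -0.60, and relative to the scaled medians of all genes -0.41, -0.11, -0.32 and -0.37. The members' own median was thus smallest in Tbx5b-deficient embryos as deposited and in double-deficient embryos after scaling, which also moved all genes. Relative to the medians of all genes the values as deposited were -0.43, -0.10, -0.33 and -0.41. On that measure the difference was smallest in Tbx5b-deficient embryos with and without scaling, and the order of the genotypes was the same. Differences between the genotypes in this respect were not tested, since each is a ratio of 2 pooled values.

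**Figure D4:**
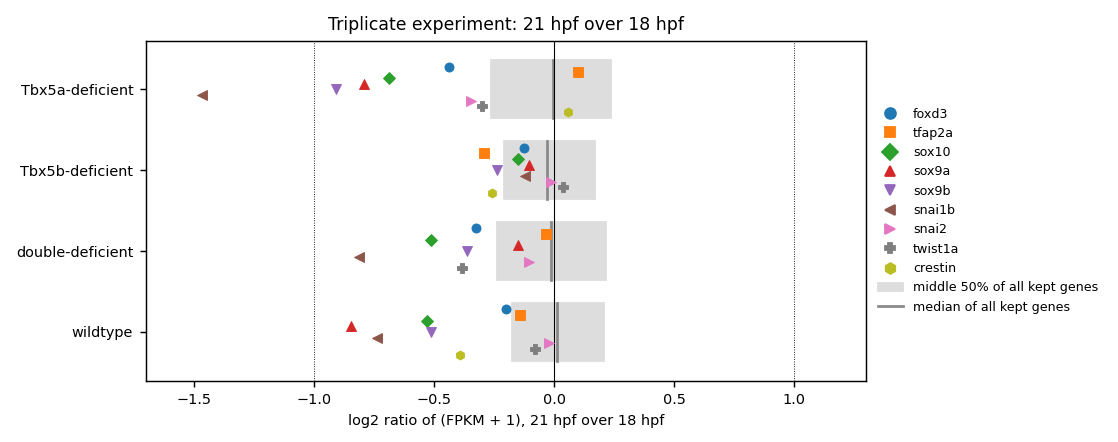
Log2 ratio of (FPKM + 1) at 21 hpf over 18 hpf for each kept member in the 4 triplicate genotypes, with grey boxes for the middle 50% of all kept genes and their median. Members lie mostly left of 0, from snai1b at -1.46 in Tbx5a-deficient embryos to tfap2a at 0.10 in the same genotype, and in Tbx5b-deficient embryos all lie between -0.29 and 0.04.

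The largest of these stage ratios was that of snai1b in Tbx5a-deficient embryos, with 5.25 FPKM (bounds 1.79 to 8.71) at 21 hpf against 16.3 FPKM (7.50 to 25.0) at 18 hpf, a log2 ratio of -1.46. It passed the ratio, as 3.02% of all kept genes did, but not the bounds, which overlapped between 7.50 and 8.71 FPKM. Among all kept genes in this comparison 99.0% had a smaller change. The other genotypes had snai1b ratios of -0.12 in Tbx5b-deficient, -0.81 in double-deficient and -0.74 in wildtype embryos.

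The stage ratios of sox9b and sox9a were -0.91 and -0.79 in Tbx5a-deficient, -0.24 and -0.11 in Tbx5b-deficient, -0.36 and -0.15 in double-deficient, and -0.51 and -0.85 in wildtype embryos. Those of sox10 were -0.69, -0.15, -0.51 and -0.53 in these 4 genotypes and those of foxd3 -0.44, -0.13, -0.33 and -0.20. Ratios of tfap2a were 0.10, -0.29, -0.04 and -0.14 and those of snai2 -0.35, -0.01, -0.10 and -0.02. The order of the members differed between genotypes, with the lowest ratio that of snai1b in Tbx5a-deficient and double-deficient, tfap2a in Tbx5b-deficient and sox9a in wildtype embryos. For foxd3, sox10, sox9b and snai1b, 4 of the 9 members, all genotypes at 21 hpf lay below all genotypes at 18 hpf, which held for 7.48% of all 11040 genes kept over the 8 groups. After scaling to the sum of FPKM 3 members, sox10, sox9b and snai1b, had no overlap, beside 4.38% of all genes. This count was chosen after the values had been seen.

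Finally the paralogue groups were set directly against each other, without the wildtype values. No member was called changed between Tbx5a-deficient and Tbx5b-deficient embryos in the triplicate experiment at 21 hpf (0 of 9, beside 0.215% of all kept genes) or 18 hpf (0 of 9, 0.217%), nor between the preliminary libraries so labelled at 21 hpf (0 of 9, 1.61%) or 18 hpf (0 of 8, 0.514%). At 18 hpf of the triplicate experiment 7 of 9 values were higher in Tbx5a-deficient embryos, with log2 ratios of 0.65 for sox9a, 0.62 for snai1b, 0.43 for sox10, 0.41 for sox9b, 0.32 for twist1a, 0.28 for foxd3 and 0.27 for snai2. Of all kept genes 47.0% were higher. Scaling to the sum of FPKM moved the median of all genes by -0.26 in this comparison and left 5 of 9 members higher. Relative to the median of all genes the members' median was 0.34 as deposited and 0.31 after scaling. At 21 hpf 7 of 9 values were lower in Tbx5a-deficient embryos, snai1b the lowest at -0.72, and after scaling, with a shift of 0.13, 2 of 9 were. In the preliminary libraries at 18 hpf the ratios of these 7 members were -0.48 for sox9a, -0.43 for snai1b, -0.22 for sox10, -0.25 for sox9b, 0.06 for twist1a, -0.02 for foxd3 and 0.13 for snai2, so twist1a and snai2 had the sign of the triplicate ones and the other 5 the opposite sign.

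How alike the members were across groups was described by Pearson's r of log2(FPKM + 1) over the 8 triplicate groups, among 7019 genes at 5 FPKM or more in all groups. The 8 points share 2 stages and are pooled values, so r has no p-value, and the part of the stage difference in it was not tested. The r of foxd3 to sox10 was 0.972, and only 10 of the 7019 genes had a higher r to sox10. The r to sox10 was 0.958 for sox9b, 0.941 for snai1b, 0.855 for sox9a, 0.815 for snai2 and 0.763 for twist1a. It was 0.147 for tfap2a and 0.345 for crestin, which was below the minimum and was set beside the others all the same.

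**Figure D5:**
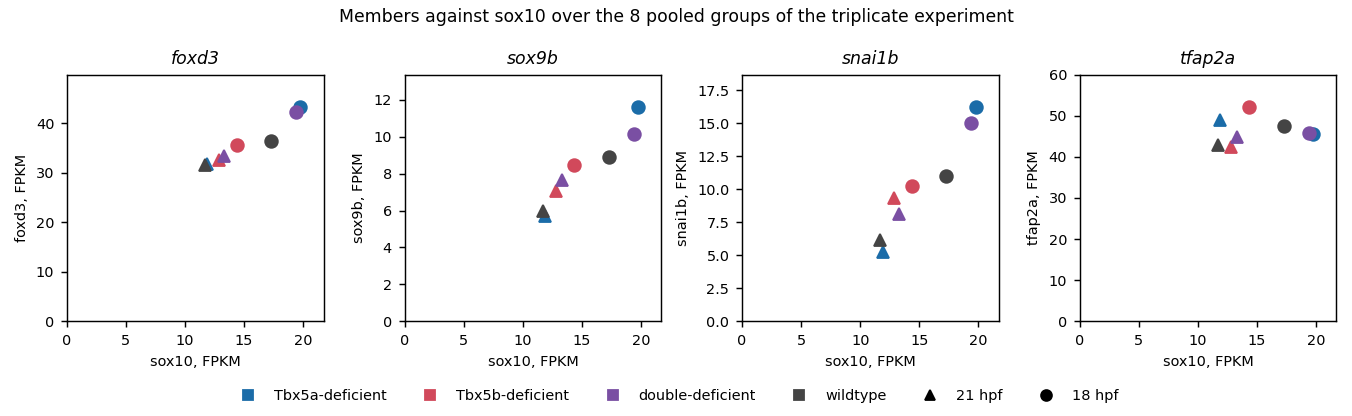
FPKM of foxd3, sox9b, snai1b and tfap2a on the vertical axes against FPKM of sox10 on the horizontal axes over the 8 pooled triplicate groups, with colours for genotype, triangles for 21 hpf and circles for 18 hpf. The first 3 genes go up with sox10 (r of log2 values 0.972, 0.958 and 0.941), with the 21 hpf groups at the lower left, and tfap2a does not (0.147).

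The closest pair among the members was snai1b and sox9b, at an r of 0.974, with 2 genes of the 7019 closer to snai1b. Outside the members, the genes most like sox10 were zbtb12.2 (0.989), xpo4 (0.985) and tmem107 (0.982). Those most like foxd3 were shisa2 (0.983), zbtb14 (0.982) and ednrab (0.981), an endothelin receptor gene of migrating crest. Ednrab was at 27.8 FPKM in Tbx5a-deficient, 25.5 in Tbx5b-deficient, 27.6 in double-deficient and 24.6 in wildtype embryos at 21 hpf, and at 48.0, 31.9, 50.6 and 33.0 FPKM at 18 hpf. Those most like crestin were msl2a (0.984), crk (0.983) and zgc:158604 (0.98).

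Genes around the members in the crest pathway were read from 10 lists: other crest and border specifiers, inducing signals, migration, pigment lineage, glial and neuronal derivatives, pharyngeal arch crest, and otic, epidermal, somite and neural tube cells. In the 6 triplicate comparisons with wildtype, no gene of any of the 10 lists was called changed, beside 0.224% to 0.298% of all kept genes. Of the 39 other crest and border specifiers, such as pax, msx and zic genes, 31 were kept in each of these comparisons, with medians of -0.07 to 0.05. Of the 26 migration genes 24 or 25 were kept, with medians of -0.05 to 0.18. The highest triplicate means among the border specifiers were those of mycn, at 101 FPKM, and id3, at 98.3 FPKM, both above the highest member value, twist1a at 54.1 FPKM.

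In the preliminary libraries at 18 hpf several of these genes were called changed, beside 1.57% (Tbx5a label) and 1.58% (Tbx5b label) of all kept genes. The lists with calls had 23 migration, 14 pigment, 13 glial and neuronal, 9 otic and 31 border specifier genes found. Those without calls had 19 inducing signal, 19 arch, 11 epidermal, 10 somite and 12 neural tube genes found. Genes found include some below 1 FPKM, whereas the shares are over kept genes. Ednrab was at 43.8 FPKM (labelled Tbx5a-deficient) and 47.7 FPKM (Tbx5b-deficient), against 19.7 FPKM (wildtype). The matrix metalloproteinase gene mmp2 was at 29.7 and 28.0 FPKM against 79.4 FPKM, and gch2, of the pteridine pathway of yellow pigment cells, at 28.4 and 31.7 FPKM against 5.97 FPKM. Each pair rests on 1 wildtype library, the same in which snai1b and foxd3 were highest.

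Further calls at 18 hpf against that library were plp1a, a myelin protein gene, at 25.5 and 23.2 FPKM against 7.79 FPKM, and the otolith gene otomp at 7.59 and 10.7 FPKM against 1.74 FPKM. The paired box genes pax7a, at 11.8 against 2.78 FPKM, and pax7b, at 13.6 against 5.73 FPKM, were called only in the library labelled Tbx5b-deficient, and the difference between the deficient libraries was not called for either at 18 hpf. The triplicate log2 ratios of ednrab, mmp2, gch2, plp1a and otomp at 18 hpf were 0.53, -0.24, -0.76, -0.01 and 0.05 in Tbx5a-deficient and -0.05, 0.25, -0.66, 0.03 and -0.15 in Tbx5b-deficient embryos. None of these was called, and for gch2 the sign was the opposite of the preliminary one in both groups.

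At 21 hpf the preliminary calls were col2a1a, a cartilage and notochord collagen, at 354 and 311 FPKM against 144 FPKM in the libraries labelled Tbx5a-deficient, Tbx5b-deficient and wildtype, and 3 genes in that labelled Tbx5b-deficient alone. These were the Notch ligand gene dla, at 26.7 against 59.9 FPKM, plp1a, at 20.0 against 66.2 FPKM, and mmp2, at 86.5 against 40.8 FPKM. All 3 lay on the other side of wildtype at 18 hpf in the library so labelled, mmp2 and plp1a with the calls given above and dla, not called, at 23.8 against 15.8 FPKM. The same 3 genes, with pax7a and the iridophore gene pnp4a, were called between the libraries labelled Tbx5a-deficient and Tbx5b-deficient at 21 hpf, beside 1.61% of all kept genes. Against wildtype at 21 hpf the shares of all kept genes were 0.0772% (Tbx5a label) and 1.65% (Tbx5b label). The lists with calls at 21 hpf had 18 arch, 19 inducing signal, 25 migration, 12 glial and neuronal, 33 border specifier and 12 pigment genes found. Those without calls had 6 otic, 12 epidermal, 10 somite and 11 neural tube genes found. As at 18 hpf, genes found include some that were not kept. Sums of the neural tube list were 825, 557 and 758 FPKM in the libraries labelled Tbx5a-deficient, Tbx5b-deficient and wildtype at 21 hpf, and 428, 507 and 373 FPKM at 18 hpf, and their part in these calls was not tested.

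Between the stages, by contrast with the specifiers, genes of the pigment lineage were called higher at 21 hpf in the triplicate embryos. Of 10 kept pigment genes 5 were higher in Tbx5a-deficient, 6 in Tbx5b-deficient, 7 in double-deficient and 1 in wildtype embryos, none lower, beside 0.857%, 0.634%, 1.13% and 0.438% of all kept genes called higher. The list medians were 1.33, 1.62, 1.57 and 0.98. After scaling to the sum of FPKM the same genes were called, and the list medians were 1.56, 1.55, 1.75 and 0.74. The genes called were dct, tyr, tyrp1b, pmela and slc45a2, of melanin synthesis and melanosomes, with gch2 and pnp4a. Such melanin genes are also made by the pigment epithelium of the eye, which had been dissected away. At 21 hpf tyrp1b was at 63.2 FPKM in the preliminary wildtype library of complete embryos, against 2.78 FPKM in triplicate wildtype embryos. The paper places tyrp1b primarily in the eye and reports it higher in deficient embryos, by sequencing and by staining of the eye. In Tbx5b-deficient and double-deficient embryos it describes the stain as more intense but over a smaller area. The triplicate values at 21 hpf had the direction of an increase, at 4.60 (Tbx5a), 6.52 (Tbx5b) and 5.98 FPKM (double deficiency) against 2.78 FPKM in wildtype. Their bounds overlapped those of wildtype. The preliminary libraries at 21 hpf did not have it, at 61.3 (Tbx5a label) and 32.5 FPKM (Tbx5b label) against 63.2 FPKM. None of these differences was called by the rule used here. The part of any eye tissue left behind was not tested.

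The xanthophore gene gch2 was at 49.4 FPKM at 21 hpf against 9.32 FPKM at 18 hpf in Tbx5a-deficient, 39.4 against 10.1 in Tbx5b-deficient, 51.3 against 9.48 in double-deficient, and 46.7 against 16.5 in wildtype embryos. The first 3 were called and the wildtype difference, with a log2 ratio of 1.45, was not. Tyrp1b was the gene called in all 4 genotypes, at 4.60 against 0.491 FPKM in Tbx5a-deficient, 6.52 against 0.216 in Tbx5b-deficient, 5.98 against 0.184 in double-deficient and 2.78 against 0.324 in wildtype embryos. Whether the number of calls differed between genotypes was not tested.

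A few genes of the other lists were called lower at 21 hpf. In Tbx5a-deficient embryos, beside 0.205% of all kept genes, they were 1 of 31 kept border specifiers, 1 of 18 arch genes and 1 of 19 inducing signals. These were msxe, at 13.5 against 39.3 FPKM, foxc1a, of arch crest and head mesenchyme, at 6.83 against 22.0 FPKM, and the Bmp antagonist chd at 1.02 against 4.77 FPKM. In double-deficient embryos, beside 0.24% of all kept genes, they were 1 of 19 inducing signals and 2 of 9 somite list genes. These were chd, at 1.38 against 5.49 FPKM, and the mesoderm genes myf5, at 16.5 against 45.6 FPKM, and tbx16, at 7.88 against 23.0 FPKM. After scaling to the sum of FPKM, of these calls only that of chd in Tbx5a-deficient embryos was left, beside 0.166% of all kept genes called lower. With scaling wnt8a and fn1b were called lower in Tbx5b-deficient embryos, beside 0.184% of all kept genes. Sums of the somite list, tissue in which sox9a and twist1a are also made, were 222, 217, 202 and 281 FPKM in Tbx5a-deficient, Tbx5b-deficient, double-deficient and wildtype embryos at 21 hpf, against 363, 324, 379 and 350 FPKM at 18 hpf. Sums of the epidermal list, tissue in which tfap2a is also made, were 4117, 5075, 4308 and 6614 FPKM at 21 hpf. At 18 hpf they were 7777, 6980, 6511 and 6048 FPKM. The highest gene of that list, krt5, was at 1940, 2762, 2149 and 3301 FPKM at 21 hpf, against 3108, 2896, 3290 and 3174 FPKM at 18 hpf. The epidermal list medians of the stage log2 ratio were 0.12, -0.07, -0.08 and 0.04, and none of its genes was called changed. The part of these tissues in the members' stage differences was not tested.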

How the data were processed

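The deposited values are gene FPKM with confidence bounds from Cuffdiff, which the authors computed after aligning single-end reads of oligo dT libraries. The submitters' processing notes name bcl2fastq, TopHat2 2.1.0, Bowtie2 2.2.5.0 and danRer10 (GRCz10), while the study's methods name Zv9. Unplaced sequences carry danRer10 names in the triplicate and the preliminary 21 hpf values and Zv9 names in the preliminary 18 hpf values, whose coordinates are not given here. Listed starts count from 0, so 1 was added. The preliminary 18 hpf values headed by the strain name were taken as wildtype.

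The authors pooled the 3 libraries of a triplicate group into 1 value, so a planned limma fit could not be made. No p-value, standard deviation or read depth of a group is given. Ratios were computed with pandas 2.3.3 and numpy 2.4.6 in Python 3.11.15 as log2 with a pseudocount of 1, which understates changes of low genes, in 18 comparisons. The rule was tested on simulated data only for changes larger than any seen in a member, and not for genes at low levels. Named genes were all members, list genes called changed or among the 3 highest of their list, the 3 genes most like sox10, foxd3 and crestin, and the targeted genes. Members and lists were chosen with earlier results of these data known. Alternatives were a pseudocount of 0.1, no minimum or one of 5 FPKM, ratios without bounds, scaling to the FPKM sum, centring on the median, and only 3 members. Sequences were not used here.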

Additional observations from a re-analysis of the deposited data

How the results depend on the processing

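The number of members called changed stayed the same in all 18 comparisons with a pseudocount of 0.1, without a minimum level, with a minimum of 5 FPKM, after scaling to the sum of FPKM and after centring on the median of all kept genes. Without the bounds, 1 member was called between 21 and 18 hpf in Tbx5a-deficient embryos of the triplicate experiment, snai1b at a log2 ratio of -1.465, against 0 with them. The median of the members changed sign in 2 of 18 comparisons after scaling to the sum of FPKM, in 1 with a minimum of 5 FPKM, and in 0 with the other settings, the median of sox10, foxd3 and crestin alone included. Over all genes 9 to 250 were called in a comparison, 40 to 604 without the bounds, where 15 of 18 counts differed by more than 1.5 times, and 17 to 386 with a pseudocount of 0.1, where 4 did. With a pseudocount of 0.1 the medians ran from -0.56 to 0.33. Scaling to the sum of FPKM moved the r to sox10 in both directions. It rose from 0.147 to 0.473 for tfap2a, from 0.763 to 0.916 for twist1a and from 0.345 to 0.635 for crestin. Smaller rises were those of sox9a, from 0.855 to 0.936, and sox9b, from 0.958 to 0.968. The r fell from 0.972 to 0.920 for foxd3, from 0.941 to 0.912 for snai1b and from 0.815 to 0.748 for snai2. This alternative, like the scaled counts of list genes between the stages, was chosen after seeing the data, and the cause was not tested.

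Leaving out single replicates could not be done, because the 3 libraries of each triplicate group are held as 1 pooled value. No paired analysis was possible because the pooled values carry no replicate numbers and the preliminary groups have 1 library each. The preliminary call of snai1b therefore has no replicate check, and the wide bounds of crestin and snai1b limit what the triplicate values can show for them.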
